A study of Homo sapiens with 6 samples.

Results

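The kinesin motor genes were taken as all genes whose symbol is KIF with a number and an optional A, B or C, or KIFC with a digit. The rule found 42 genes among the 58735 in the table, and 36 of them had enough counts to be tested. They were sorted by textbook role into 14 mitotic, 15 transport and 13 other kinesins. All libraries were made from the established human line ACHN, of renal carcinoma origin, given in the labels as wild-type and as a clear cell renal carcinoma model. There were 3 curcumol libraries and 3 control libraries, described as independent biological replicates. Curcumol is a sesquiterpenoid from the rhizome oil of Curcuma species. The control is a vehicle control in the sample labels but untreated in the series text, and neither dose nor time is given in the sources used here. Both groups share the line and the genotype.

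Kinesins are ATP-driven motors that walk along microtubules or take them apart at their ends. Mitotic kinesins push spindle poles apart, align chromosomes and build the midzone where the cell divides, and their mRNAs are made mainly late in the cell cycle. Transport kinesins carry vesicles, mitochondria and ciliary cargo, mostly through adapter proteins, and are also used by cells that do not divide.

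Totals ran from 17256960 to 17410920 counts in the curcumol libraries and from 16962012 to 17827433 in the control libraries. All 8 renal epithelial markers were detected, among them PAX8 at 60.1 ± 3.38 CPM in curcumol and 192 ± 4.49 CPM in control (SD, n = 3). CPM are counts scaled to a common library size with TMM factors, as a rate per 1e6 counts. Markers of leukocytes, endothelium and fibroblasts, 14 genes of which CD3E was at 0 in all libraries, summed to between 7.75 and 16.5 CPM in curcumol and to at most 5.43 CPM in control. Their part in the results was not tested. The GC content of genes, weighted by counts, was 47.9% to 48.3% in the curcumol libraries and 49.3% to 49.6% in the control libraries.

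Kinesin mRNAs went both ways in curcumol, and more fell than rose. Of the 36 tested genes 18 fell, 6 rose and 12 did not pass (edgeR quasi-likelihood test, adjusted p under 0.05). The 24 that passed are 66.7% of the family, where 79.7% of all 15160 tested genes passed, 39.4% as rises and 40.3% as falls. Rises were 16.7% of the kinesins tested. The median log2 fold change was -0.24 for the kinesins and -0.02 for all genes tested. Changes of at least 2-fold were seen for 10 kinesins that fell and 3 that rose, where 23.1% and 21.3% of all genes did so. Without control replicate 3 the counts were 19 falls and 10 rises, where 6041 of all genes fell and 6072 rose. With library totals as the scaling, which shifts the median of all genes to -0.28, 22 kinesins fell and 3 rose. Rises then made up 12% of the kinesin calls, against 25% with TMM. Over all genes 7372 fell and 4818 rose with library totals, against 6109 and 5967 with TMM. Groups did not overlap for 26 kinesins, where 81.0% of all genes had none: 19 were lower in curcumol (41.1% of all genes) and 7 higher (39.8%). In bulk RNA, fewer cells at the stage that makes an mRNA and less of it per cell cannot be told apart.

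**Figure D1:**
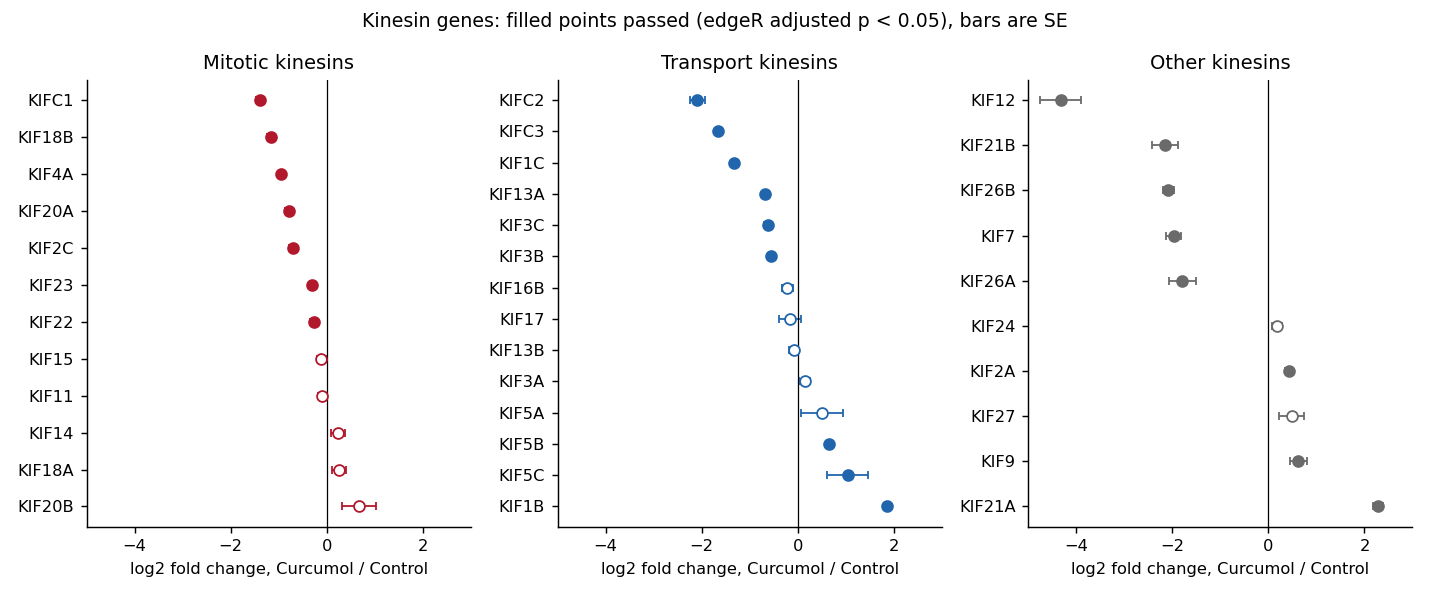
Log2 fold change of curcumol over control (x axis) for the 36 tested kinesin genes (y axis), by class, with SE as bars. Filled points passed the test at an adjusted p under 0.05. Filled mitotic points all lie below 0, from -1.39 for KIFC1 to -0.27 for KIF22, while filled transport and other points lie on both sides.

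Among the mitotic kinesins 7 of 12 tested fell and 0 rose, with a median log2 fold change of -0.29, and the call turned for 1 of the 7, KIF22, with an offset for GC content. DESeq2 called 1 rise, KIF18A, and limma-voom 1, KIF20B, while 0 of the 5 that did not pass had an unadjusted p under 0.05 in edgeR. The 7 that passed make 58.3%, against 79.7% of all genes. Among the transport kinesins 6 of 14 fell and 3 rose (64.3% passing), with a median of -0.18. Of the 10 other kinesins tested 5 fell and 3 rose, 80.0% passing, close to the 79.7% of all genes, and their median was -0.81. The difference between the classes was not tested. Without stated use of strand, opposite-strand overlaps cannot be told apart. KIF20A shares 132 exonic bases with BRD8 and 68 with CDC23, KIF4A 77 with PDZD11 and KIF18A 61 with METTL15. KIF22 shares 561 with AC009133.4, KIFC1 424 with RPL12P1, KIF23 231 with AC027237.3 and KIF2C 175 with AL592166.1.

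KIFC1, a minus-end directed motor that bundles spindle poles and clusters surplus centrosomes, was the most reduced mitotic kinesin (ENSG00000237649, chromosome 6, 33391536 to 33409924, plus strand, GRCh38). KIFC1 had 37.3, 35.2 and 33.9 CPM in the curcumol libraries, against 96.2, 98.2 and 85.1 CPM in the control libraries. All curcumol libraries were far below all control libraries, and the log2 fold change was -1.39 ± 0.08 (SE by edgeR, adjusted p = 4.98e-13).

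KIF18B, which limits the growth of astral microtubules at their plus ends (ENSG00000186185, chromosome 17, 44924709 to 44947711, minus strand), had 46.2, 52.2 and 44.7 CPM in curcumol and 113, 103 and 105 CPM in control. Its groups did not overlap either, with a log2 fold change of -1.17 ± 0.08 (SE by edgeR, adjusted p = 4.99e-12). KIF4A, a chromosome-bound motor that works with PRC1 to set the length of midzone microtubules, had 48.2, 46.0 and 48.6 CPM in curcumol and 89.5, 94.8 and 90.7 CPM in control (log2 fold change -0.95 ± 0.07 by edgeR, adjusted p = 4.6e-11). The spread of KIF4A within each group was small beside the gap between them. KIF4B is an intronless near-copy of KIF4A, and with 4 to 10 counts per library it was not tested.

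KIF20A (MKLP2) carries the Aurora B complex to the central spindle, KIF23 (MKLP1) crosslinks midzone microtubules with RACGAP1, and KIF2C (MCAK) takes apart microtubules at faulty kinetochore attachments. KIF20A had 55.4, 51.6 and 51.1 CPM in curcumol and 89.7, 99.5 and 85.5 CPM in control, a log2 fold change of -0.80 ± 0.07 (SE by edgeR, adjusted p = 2.73e-09). KIF2C had 88.7, 79.2 and 71.2 CPM in curcumol and 134, 132 and 124 CPM in control, a log2 fold change of -0.71 ± 0.07. KIF23 had 97.2, 108 and 112 CPM in curcumol and 134, 121 and 137 CPM in control, a log2 fold change of -0.31 ± 0.07. These 3 fell with no overlap between the groups, though for KIF23 the highest curcumol library was close to the lowest control library. KIF22, a DNA-binding motor that pushes chromosome arms outward, changed least among the falls, by -0.27 ± 0.07. KIF22 turned round with an offset for GC content, to 0.21 (edgeR adjusted p = 0.00153), and neither KIF22 nor KIF23 passed a test against a 1.2-fold change.

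KIF11 (Eg5), the motor that slides spindle poles apart and the target of the first mitotic kinesin inhibitors, did not pass. KIF11 had 133, 161 and 150 CPM in curcumol and 164, 147 and 166 CPM in control, and the groups overlapped (log2 fold change -0.10 ± 0.07 by edgeR, adjusted p = 0.182). KIF15, which can stand in for KIF11 in keeping the spindle bipolar, stood at -0.11 ± 0.10 (edgeR adjusted p = 0.322). With the GC offset both passed as falls, KIF11 at -0.74 and KIF15 at -0.64, and with library totals at -0.37 and -0.38.

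KIF14, which acts in cytokinesis with citron kinase, KIF18A, which dampens chromosome movement at the metaphase plate, and KIF20B, which acts late in cytokinesis, had higher means in curcumol but overlapping groups. KIF20B had 82.8, 126 and 129 CPM in curcumol and 62.7, 48.3 and 101 CPM in control (log2 fold change 0.67 ± 0.36 by edgeR, adjusted p = 0.157). KIF18A had 46.1, 60.9 and 61.8 CPM in curcumol and 46.1, 38.9 and 56.5 CPM in control, and KIF14 had 81.2, 105 and 105 CPM in curcumol and 84.4, 66.6 and 95.7 CPM in control. For all 3 genes curcumol replicate 1 was the lowest of its group and control replicate 3 the highest of its own. Without control replicate 3 they passed as rises, KIF20B at 1.01, KIF18A at 0.39 and KIF14 at 0.35, and without curcumol replicate 1 KIF18A passed at 0.38. With the GC offset the sign turned for KIF20B (-0.12), KIF18A (-0.43) and KIF14 (-0.42), and with library totals KIF14 stood at -0.03 and KIF18A at -0.01. CENPE, a kinetochore kinesin whose symbol lies outside the rule, likewise had its lowest curcumol value in replicate 1 and its highest control value in replicate 3, with 35.8, 69.4 and 63.6 CPM in curcumol and 26.7, 22.1 and 41.7 CPM in control. Its log2 fold change was 0.90 ± 0.39 (SE by edgeR, adjusted p = 0.0926), and 1.19 without control replicate 3 and 1.14 without curcumol replicate 1, where it passed, as it did with DESeq2 (0.94) and limma-voom (0.89). CENPE did not pass with library totals (0.63, edgeR adjusted p = 0.206), and its lowest value over all alternatives was 0.15. KIF2B, the remaining mitotic member, had 0 counts in all 6 libraries.

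**Figure D2:**
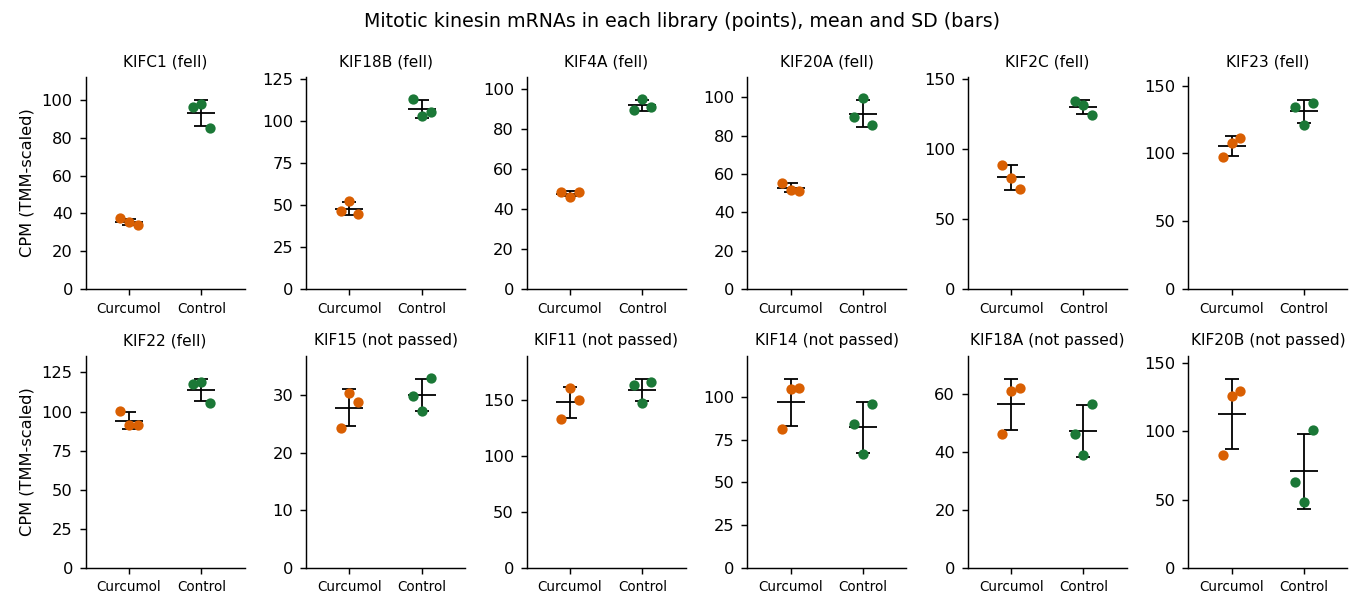
TMM-scaled CPM (y axis, from 0) of the 12 tested mitotic kinesins in each curcumol and control library (points), with group mean and SD (bars). Curcumol points lie below all control points for the 7 genes that fell, while for KIF15, KIF11, KIF14, KIF18A and KIF20B the groups overlap.

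The promoters of the mitotic kinesins are shown because these genes are known to be switched on together late in the cell cycle. Many such genes hold a cell cycle genes homology region (CHR), bound by the DREAM and MuvB complexes, and CCAAT boxes, bound by NF-Y. RefSeq promoters (GRCh38.p14, 250 bases before to 50 after the transcript start) were matched by symbol for 34 of the 42 kinesins, all 14 mitotic ones among them. The letters TTTGAA or TTCGAA (CHR) and CCAAT were searched on both strands, and no match of one overlapped a match of another. The 8 stretches below run from 90 bases before to 10 after the start, 5′ to 3′ on the gene's strand, with matches in capitals. The first 5 belong to genes that fell and the last 3 to genes that did not pass.
KIFC1: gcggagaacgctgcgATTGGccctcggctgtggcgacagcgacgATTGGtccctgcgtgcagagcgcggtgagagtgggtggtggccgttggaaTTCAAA
KIF18B: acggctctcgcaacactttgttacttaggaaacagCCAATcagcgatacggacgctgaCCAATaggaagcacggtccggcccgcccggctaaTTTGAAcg
KIF4A: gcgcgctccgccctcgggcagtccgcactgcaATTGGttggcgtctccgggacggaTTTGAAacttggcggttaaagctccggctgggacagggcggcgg
KIF23: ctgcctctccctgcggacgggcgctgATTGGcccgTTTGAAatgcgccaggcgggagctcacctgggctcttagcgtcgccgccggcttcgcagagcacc
KIF22: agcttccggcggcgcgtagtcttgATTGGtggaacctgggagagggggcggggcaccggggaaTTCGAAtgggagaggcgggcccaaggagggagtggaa
KIF11: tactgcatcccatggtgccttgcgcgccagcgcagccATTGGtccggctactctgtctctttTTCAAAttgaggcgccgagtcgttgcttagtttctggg
KIF15: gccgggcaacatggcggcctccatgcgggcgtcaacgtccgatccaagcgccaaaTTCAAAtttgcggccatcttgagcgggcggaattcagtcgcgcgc
KIF18A: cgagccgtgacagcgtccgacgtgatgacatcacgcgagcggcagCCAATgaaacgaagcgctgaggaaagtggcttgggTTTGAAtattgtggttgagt

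The stretches lie at chr6:33391733-33391832 (plus strand, KIFC1), chr17:44947764-44947863 (minus, KIF18B), chrX:70290014-70290113 (plus, KIF4A), chr15:69414259-69414358 (plus, KIF23), chr16:29790661-29790760 (plus, KIF22), chr10:92593040-92593139 (plus, KIF11), chr3:44761704-44761803 (plus, KIF15) and chr11:28108147-28108246 (minus, KIF18A). CHR letters were in the window of 11 of the 14 mitotic kinesins (78.6%), against 16.4% of all 35116 promoters in the table and 19.5% of all genes with any listed promoter. CCAAT was in 11 of 14 (78.6%), against 34.6% of all promoters and 39.7% of all genes with any listed promoter. Of 11 transport kinesins with a promoter 1 held CHR letters, KIF5B at position -140, and of 9 other kinesins 1 did, KIF24. Mitotic kinesins that fell and those that did not pass both held the letters: 5 of 7 that fell and 5 of 5 that did not pass had a CHR match. KIF20A and KIF2C fell without CHR letters in this window. A match describes the letters only.

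**Figure D3:**
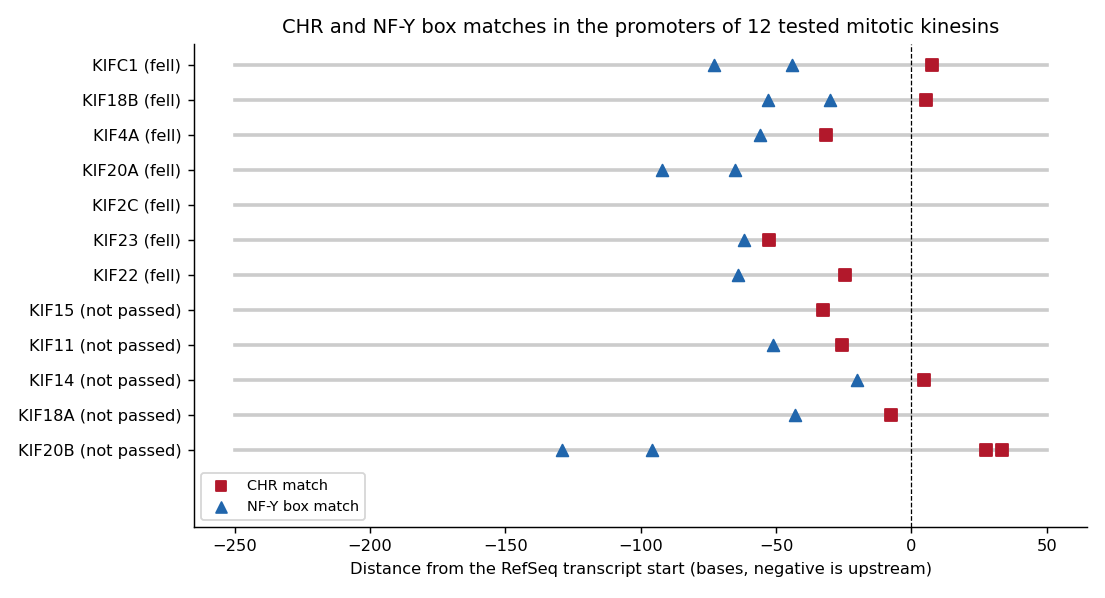
Positions of CHR matches (squares) and NF-Y box matches (triangles) in the promoters of the 12 tested mitotic kinesins, as distance in bases from the RefSeq transcript start (x axis). Genes run down the page from the largest fall to the highest fold change, and CHR matches sit near the start both in genes that fell and in genes that did not pass.

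Transport kinesins moved apart, with large changes on both sides. KIFC3, a minus-end directed motor of epithelial cells known from adherens junctions and apical transport (ENSG00000140859, chromosome 16, 57758217 to 57863053), had 78.8, 79.8 and 72.2 CPM in curcumol and 240, 241 and 246 CPM in control. Both groups were tight and wide apart, with a log2 fold change of -1.66 ± 0.06 (SE by edgeR, adjusted p = 5.21e-16). KIF1C, a carrier of dense-core vesicles and integrins (ENSG00000129250, chromosome 17, 4997948 to 5028401), had 145, 137 and 134 CPM in curcumol and 364, 352 and 326 CPM in control, a log2 fold change of -1.33 ± 0.06 (SE by edgeR, adjusted p = 1.33e-14). KIFC2, a minus-end motor described in mouse neurons, had 4.87, 3.58 and 3.28 CPM in curcumol and 16.3, 14.7 and 18.9 CPM in control, a log2 fold change of -2.09 ± 0.16 (SE by edgeR, adjusted p = 9.69e-11). KIFC2 shares 791 of its 4447 exonic bases with FOXH1 on the other strand, and the 2 cannot be told apart without strand. KIFC3 shares 441 of its 9600 exonic bases with AC092118.2 and 97 with AC092118.1, also on the other strand. These 3 kept their fall with the GC offset, at smaller sizes of -0.96 for KIFC3, -0.94 for KIF1C and -1.24 for KIFC2.

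KIF1B, which moves mitochondria and synaptic vesicle precursors (ENSG00000054523, chromosome 1, 10210805 to 10381603), rose most among the transport kinesins. KIF1B had 218, 229 and 239 CPM in curcumol and 61.8, 65.8 and 61.7 CPM in control, a log2 fold change of 1.86 ± 0.06 (SE by edgeR, adjusted p = 1.24e-16), and 1.67 with the GC offset. KIF1B thus went the other way from KIF1C, its relative in the same subfamily. KIF1B shares 293 of its 17720 exonic bases with RN7SL731P on its own strand. Within the conventional kinesin heavy chains, KIF5B, the ubiquitous form, had 377, 438 and 441 CPM in curcumol and 266, 242 and 289 CPM in control. The KIF5B groups did not overlap (log2 fold change 0.66 ± 0.07 by edgeR, adjusted p = 3.79e-08), but with the GC offset KIF5B stood at 0.07 (edgeR adjusted p = 0.227). The neuronal forms were nearly silent: KIF5C had 16, 24 and 13 counts in curcumol and 9, 10 and 12 in control, and KIF5A had 15, 12 and 13 in curcumol and 11, 8 and 15 in control. KIF5C passed (log2 fold change 1.04 ± 0.42 by edgeR, adjusted p = 0.0295), a call lost without control replicate 1 (0.96), control replicate 2 (1.01) or curcumol replicate 2 (0.77), as well as with DESeq2 (1.08, adjusted p = 0.0591). The KIF5C call was also lost with library totals (0.78), the GC offset (0.79) and no filter (0.99).

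Heterotrimeric KIF3 motors pair KIF3A with KIF3B or KIF3C. KIF3B had 75.7, 80.1 and 78.3 CPM in curcumol and 111, 117 and 115 CPM in control (log2 fold change -0.55 ± 0.06 by edgeR, adjusted p = 6.92e-08). KIF3C fell by 0.62 on the log2 scale, or by 0.18 with the GC offset (edgeR adjusted p = 0.0462). Their partner KIF3A did not pass, at 0.15 ± 0.12 (SE by edgeR, adjusted p = 0.257), with 21.8, 18.2 and 20.1 CPM in curcumol and 17.2, 15.8 and 21.3 CPM in control. KIF3A stood at 0.27 without control replicate 3 (edgeR adjusted p = 0.0498), at -0.47 with the GC offset, where it passed in the other direction, and at -0.12 with library totals. KIF13A, which carries endosomal cargo to the cell surface, fell by 0.68 on the log2 scale with no overlap, at 38.9 ± 1.54 CPM in curcumol and 62.1 ± 1.52 CPM in control. KIF13B (-0.09), the early endosome motor KIF16B (-0.21) and KIF17 (-0.15), a motor of dendrites and cilia, did not pass. KIF16B passed as a fall at -0.30 without control replicate 3, at -0.48 with library totals and at -0.42 with the GC offset. KIF13B passed as a fall with library totals (-0.35), and KIF17 as a rise with the GC offset (0.52, edgeR adjusted p = 0.0491). KIF17, with a mean of 47.3 counts, had lower TMM-scaled values in all curcumol libraries than in any control library. KIF1A, a neuronal vesicle motor, had 2 counts in 1 curcumol library and 0 in the others and was not tested.

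**Figure D4:**
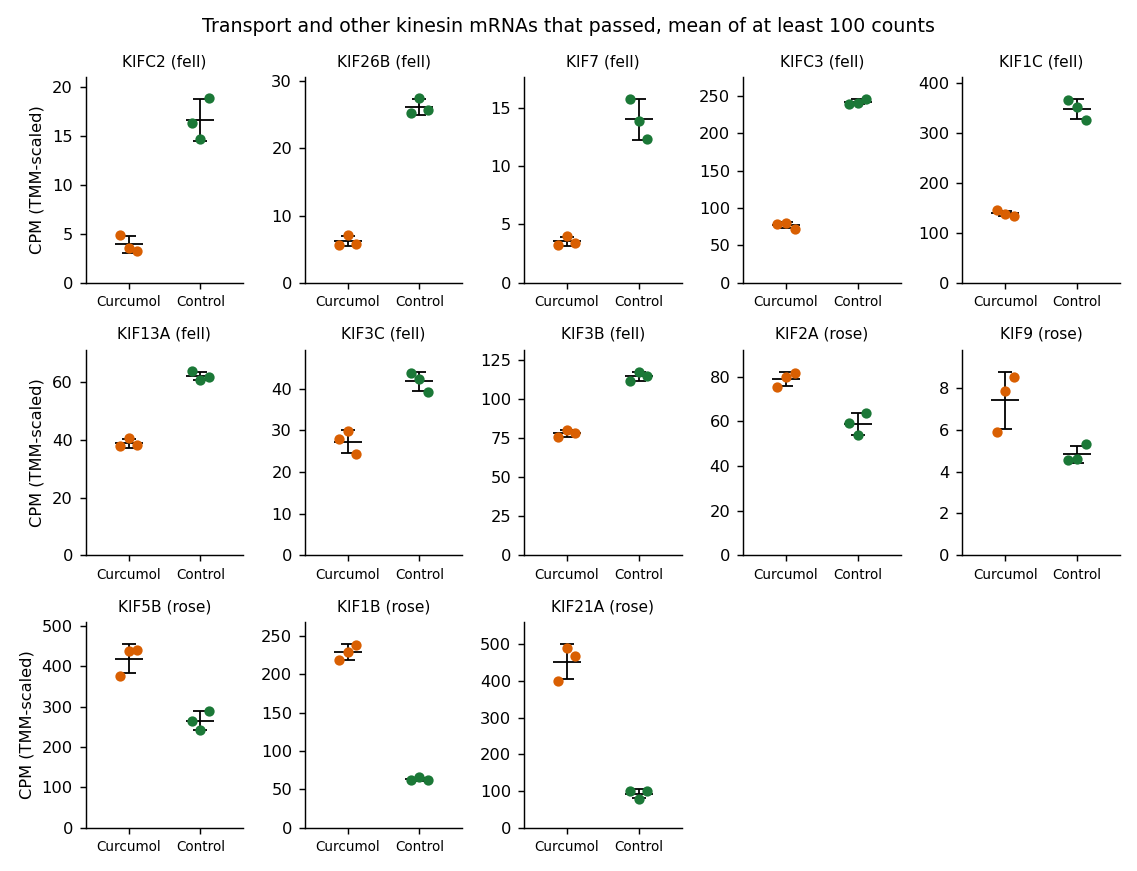
TMM-scaled CPM (y axis, from 0) in each curcumol and control library (points), with group mean and SD (bars), for the 13 transport and other kinesins that passed and averaged at least 100 counts. No gene shown has overlapping groups, but the genes were chosen for passing, and of all 12076 genes that passed 278 overlap. KIF21A, KIF1B and KIF5B reach the highest curcumol values of the genes that rose.

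Among the other kinesins KIF21A stood out in level and size of change. KIF21A, which slows microtubule growth at the cell cortex (ENSG00000139116, chromosome 12, 39293228 to 39443390), had 401, 492 and 468 CPM in curcumol and 99.6, 79.4 and 100.5 CPM in control. Its log2 fold change was 2.28 ± 0.10 (SE by edgeR, adjusted p = 1.03e-10), and 1.75 with the GC offset. KIF21B, its close relative, went the other way, with 17, 14 and 19 counts in curcumol and 102, 101 and 67 in control (log2 fold change -2.15 ± 0.27, SE).

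KIF26B, an atypical kinesin needed for kidney development in mice (ENSG00000162849, chromosome 1, 245154985 to 245709431), had 5.64, 7.03 and 5.81 CPM in curcumol and 25.2, 27.5 and 25.8 CPM in control. The groups were wide apart, with a log2 fold change of -2.08 ± 0.12 (SE by edgeR, adjusted p = 7.84e-13). Its relative KIF26A stood at -1.80 ± 0.28 (SE), and at -0.93 with the GC offset. KIF26A had only 22, 13 and 15 counts in curcumol and 75, 73 and 63 in control. KIF7, a regulator of Hedgehog signalling at the tip of the cilium, had 3.27, 4.02 and 3.41 CPM in curcumol and 15.8, 13.9 and 12.3 CPM in control (log2 fold change -1.97 ± 0.16 by edgeR, adjusted p = 1.79e-10). KIF7 stood at -1.22 with the GC offset. It shares 589 of its 5001 exonic bases with TICRR on the other strand. KIF12, known in mice from kidney, had 7, 2 and 1 counts in curcumol and 77, 64 and 110 in control, and its log2 fold change of -4.33 ± 0.43 (SE by edgeR, adjusted p = 6.23e-09) was -5.43 without curcumol replicate 1 and -3.61 with the GC offset.

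KIF2A, a microtubule depolymerase of interphase and mitosis, had 75.6, 79.8 and 81.9 CPM in curcumol and 59.1, 54.1 and 63.9 CPM in control. It rose by 0.42 ± 0.08 (SE by edgeR, adjusted p = 2.88e-05) but stood at -0.02 with the GC offset and at 0.16 with library totals, where it did not pass. KIF2A shares 428 of its 4774 exonic bases with IPO11 on its own strand. KIF9, a motor of motile cilia, rose by 0.62 ± 0.18, a call lost with library totals (0.36, edgeR adjusted p = 0.0731), and shares 870 of its 5850 exonic bases with its antisense RNA. The centriolar depolymerase KIF24 (0.18) and the KIF7 relative KIF27 (0.48) did not pass. KIF27 stood at 0.63 without curcumol replicate 2, where it passed, and KIF24 had higher values in all curcumol libraries than in any control library. KIF6, KIF19 and KIF25 had at most 6 counts in any library and were not tested.

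Levels of different genes are compared as mean CPM per kilobase of joined exons. KIF5B had the highest level of the family in both groups, at 71.2 ± 6.16 in curcumol and 45.2 ± 4.01 in control (SD, n = 3). KIF21A followed in curcumol at 44.8 ± 4.66, and stood at place 17 in control, at 9.21 ± 1.18. KIF1C was the next in control, at 40.5 ± 2.27, and stood at place 8 in curcumol, at 16.1 ± 0.66. KIF5B and KIF1C in control differed by less than the sum of their SDs, whereas KIF5B and KIF21A in curcumol did not come within it. KIF11 was the highest mitotic kinesin in curcumol, at 30.5 ± 2.88, and KIF2C in control, at 35.7 ± 1.40, where KIF11 had 32.7 ± 2.09. KIF2C and KIF11 in control also differed by less than the sum of their SDs. KIFC1 was at place 15 in curcumol and at place 5 in control.

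Summed over each class, mitotic kinesins took 35.3% ± 0.21 of all kinesin counts in curcumol and 44.1% ± 0.54 in control (SD, n = 3). Transport kinesins took 42.3% ± 0.98 in curcumol and 47.1% ± 0.85 in control. The other kinesins took 22.4% ± 0.77 in curcumol and 8.82% ± 0.34 in control, and KIF21A alone made up 17.7% ± 0.87 in curcumol and 3.57% ± 0.36 in control. These shares are of a common total, so a larger share for KIF21A makes the others smaller. The mitotic sum was 905 ± 56.3 CPM in curcumol and 1148 ± 47.1 CPM in control. In the same order, the transport sum was 1083 ± 37.0 and 1227 ± 15.5 CPM, and that of the others 575 ± 51.7 and 230 ± 15.6 CPM. The sum over all 42 genes was 2563 ± 145 CPM in curcumol and 2605 ± 77.3 CPM in control, a difference smaller than the spread between libraries on that scale. As raw counts the sum was 40494 ± 2692 in curcumol and 49787 ± 1540 in control, a ratio of 0.813, so the family total was lower in all curcumol libraries before TMM scaling.

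Log2 fold change went with GC content in this family. Across the 12 tested mitotic kinesins the Spearman correlation was -0.85, across the 14 transport kinesins -0.70, and across all 36 kinesins -0.73, where it was -0.35 across all genes tested. Among the partner lists described below it was -0.84 for mitotic partners, -0.47 for transport partners and -0.52 for dynein and dynactin. For the regulators of late cell cycle genes it was -0.29, so a strong correlation was not particular to the kinesins. The genes share the same 6 libraries, so these are descriptions. KIF20B, with 34.1% GC, had the highest and KIFC1, with 56.3%, the lowest fold change of the mitotic group. KIF22, with 57.5% GC, lay off this order. With the GC offset, which removes any difference between groups that follows GC content, 10 mitotic kinesins fell and 1 rose, KIF22, and the mitotic median was -0.67. Over all kinesins 23 then fell and 5 rose, and over all genes tested 6206 fell and 5829 rose. KIF4A (-1.10), KIF20A (-0.81) and KIF2C (-0.69), of middle GC content, kept nearly the same fall, while KIFC1 stood at -0.98 and KIF18B at -0.54.

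**Figure D5:**
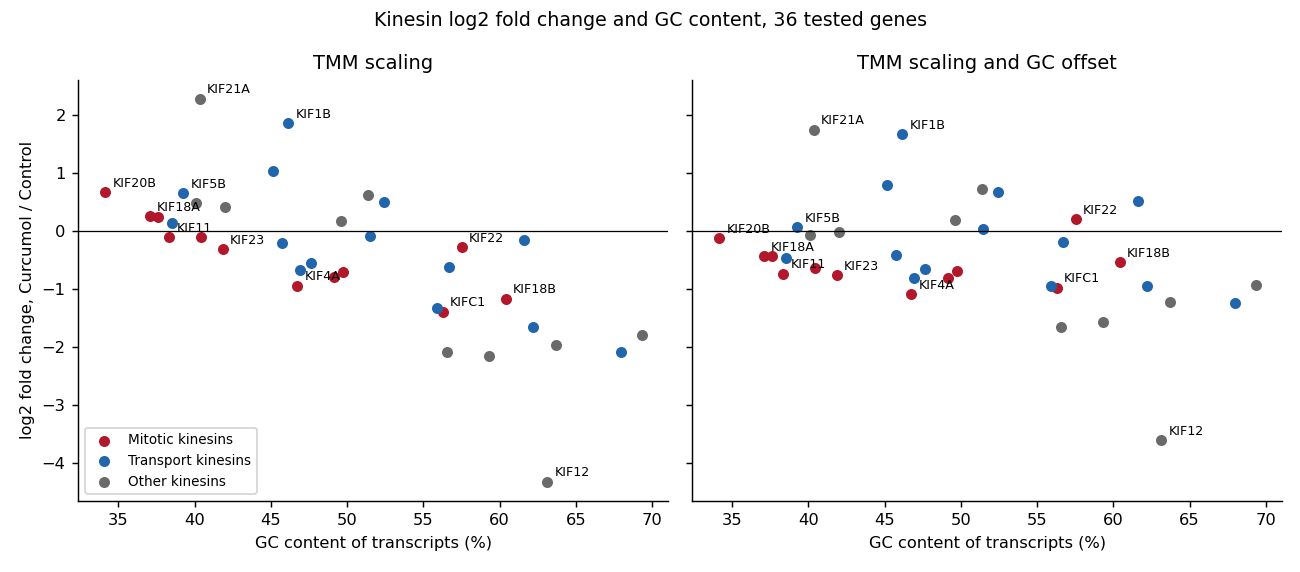
Log2 fold change of curcumol over control (y axis) against the GC content of the transcripts in percent (x axis) for the 36 tested kinesins, coloured by class, with TMM scaling (left) and with a GC offset added (right). On the left mitotic points fall from KIF20B at 0.67 to KIFC1 at -1.39, and on the right KIF11, KIF18A and KIF20B lie below 0 while KIF21A and KIF1B stay above it.

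Among 16 partners of the mitotic kinesins 9 fell and 5 rose, 87.5% passing where 79.7% of all genes did, with a median of -0.40. With library totals 10 fell and 3 rose, and with the GC offset 10 fell and 2 rose. PLK1, the kinase that docks on KIF20A at the midzone, had 56.2, 48.6 and 40.3 CPM in curcumol and 240, 239 and 216 CPM in control. Its log2 fold change was -2.26 ± 0.09, and it shares 553 of its 4760 exonic bases with AC008870.3 on the other strand. CIT, citron kinase and partner of KIF14, fell by 1.75, and INCENP, the scaffold of the Aurora B complex that KIF20A carries, by 1.02. The weakest values over the alternatives were -1.62 for CIT and -0.44 for INCENP. RACGAP1, the partner of KIF23, rose by 0.18 ± 0.06 (SE by edgeR, adjusted p = 0.0048). NUSAP1, a spindle microtubule bundler, rose by 1.14, but it shares 1787 of its 2875 exonic bases with an overlapping gene on its own strand. The midzone bundler PRC1, which works with KIF4A, shares 3181 of its 5525 exonic bases in the same way and did not pass, at -0.58 ± 0.31 with a mean of 29.5 counts.

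Of 19 tested partners of the transport kinesins 10 rose (52.6%, against 39.4% of all genes) and 7 fell (36.8%, against 40.3%), with a median of 0.18. Among them was SPAG9, a JNK scaffold and adapter of kinesin and dynein, at 461 ± 40.5 CPM in curcumol and 152 ± 4.70 CPM in control (SD, n = 3). SPAG9 rose by 1.61 ± 0.06 on the log2 scale and held higher values in all curcumol libraries. RHOT2, a GTPase that links mitochondria to kinesin, fell by 1.17, or by 0.38 with the GC offset. With library totals 4 of these partners rose and 7 fell, and with the GC offset 9 rose and 4 fell.

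The opposite motor, cytoplasmic dynein with dynactin, had 11 of 22 tested genes that rose and 8 that fell (median 0.24), or 10 and 10 with library totals. Of these genes 86.4% passed, against 79.7% of all genes. The dynactin subunit gene DCTN4 rose by 1.51 ± 0.06 and the dynein light intermediate chain gene DYNC1LI1 by 1.31 ± 0.07. DCTN1, the large dynactin subunit, fell by 1.22, and its weakest value over the alternatives was -0.77. DCTN1 shares 665 of its 10439 exonic bases with AC006030.1 on its own strand and 562 with DCTN1-AS1 on the other. NDE1, a dynein regulator, fell by 1.77 and shares 765 of its 5512 exonic bases with MYH11 on the other strand. Regulators of late cell cycle genes, 23 in all, had 13 that fell (56.5%, against 40.3% of all genes) and 7 that rose (30.4%, against 39.4%), and their median was -0.81. MYBL2, the activating partner of MuvB, had 99.0, 84.3 and 90.7 CPM in curcumol and 224, 231 and 218 CPM in control. MYBL2 fell by 1.30, or by 0.68 with the GC offset, while RBL2, the p130 subunit of DREAM, fell by 2.35 and TFDP1 by 1.59. RBL2 shares 610 of its 7320 exonic bases with AKTIP and 721 with AC007342.6, both on the other strand. LIN54, the MuvB subunit that binds the CHR, had 146, 150 and 163 CPM in curcumol and 17.9, 18.9 and 22.2 CPM in control, a rise of 2.96 ± 0.08 (SE by edgeR, adjusted p = 8.03e-18).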

How the data were processed

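The authors deposited 1 table of raw counts per gene and library, not normalized, with reads placed on the hg38 human build (GRCh38) per the submitters' processing notes. How reads were aligned, counted and assigned to strands is not given here in any source. Coordinates, joined exon lengths and exon overlaps came from GENCODE 29, and GC content from its transcripts, pooled per gene. Promoters came from RefSeq (GRCh38.p14).

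Genes were filtered with filterByExpr by group (15160 of 58735 kept), TMM-scaled, and compared by edgeR 4.0.16 (R 4.3.3) with its robust quasi-likelihood F test. Benjamini-Hochberg adjustment covered all tested genes, at a threshold of 0.05. The SE of a log2 fold change was obtained as its size over the root of F. Every adjusted p not otherwise named is from this edgeR test. CPM are TMM-scaled. The common biological coefficient of variation was 0.0731. No library repeated another: within groups, chi-square over its degrees of freedom was at least 3.48. With 3 libraries per group, replicates limit abundant genes and counting error limits rare ones.

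The members, classes and partner lists were chosen with earlier results of these data known. Members with a mean of at least 100 counts that passed with a log2 change of at least 1 were to be given per library, and the other members so given were chosen after their values were seen. Of each partner list the 4 smallest p with a log2 change of at least 1 and CENPE were named, and RACGAP1 and PRC1 after seeing their values. Of the genes so chosen, 2 are not reported here. Alternatives were DESeq2 1.42.0, limma-voom (limma 3.58.1), library totals or DESeq2 size factors as scaling, no filter, a stricter filter, a test against a 1.2-fold change, the replicate number as a block, offsets for GC content or exon length (splines fitted to each library), each library left out, and KIF2A counted as mitotic. The code was tested on simulated counts.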

Additional observations from a re-analysis of the deposited data

How the results depend on the processing

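The 18 kinesins that fell, the 7 mitotic ones among them, all passed as falls under DESeq2, limma-voom, DESeq2 size factors, library totals, the exon length offset and each library left out. With library totals KIF11, KIF13B, KIF15 and KIF16B joined them, and without control replicate 3 KIF16B did. Of them 17 fell with the GC offset and 16 against a 1.2-fold change. The count of kinesins that rose, 6, was 3 with library totals and 5 to 10 with 1 library left out, highest without control replicate 3. The mitotic kinesins that rose, 0, were 2 without a filter, 1 with DESeq2, 1 with limma-voom, 1 with the GC offset, 1 when KIF2A was counted as mitotic, and 0 to 3 with 1 library left out.

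Signs turned with the GC offset for KIF22 (0.21), KIF20B (-0.12), KIF14 (-0.42), KIF18A (-0.43), KIF2A (-0.0199), KIF13B (0.0273), KIF3A (-0.47), KIF27 (-0.0681) and KIF17 (0.52). They turned with library totals for KIF14 (-0.0259), KIF18A (-0.00991), KIF3A (-0.12) and KIF24 (-0.0836), and with the exon length offset for KIF13B (0.0367). The cause was not tested. With the replicate number as a block 1 mitotic kinesin, KIF18A, passed as a rise (0.26), KIF5C did not pass, and 12086 genes were called, against 12076 without the block. Same-numbered libraries deviated from their group means with correlations of 0.0238, -0.0123 and 0.0751. These are small, but with 3 libraries per group they cannot settle whether the numbers pair the libraries. The block changed no other call among the kinesins and named partners. Low counts limit what can be said of KIF5A, KIF5C, KIF12, KIF17, KIF21B, KIF26A and KIF27.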
